A study of Homo sapiens with 12 samples.

Results

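The genes described are 10 growth factor ligands and receptor tyrosine kinases, namely HGF, AREG, EREG, MET, EGFR, ERBB2, ERBB3, NTRK3, AXL and FGFR1. They were taken by symbol from a table of 57152 genes with values in 12 RNA sequencing libraries, and all 10 passed the filter that left 13968 genes for testing. The libraries formed 4 groups of 3. One group held LB cells given amiodarone plus hydroxypropyl-beta-cyclodextrin (HPbCD), a ring-shaped sugar that binds cholesterol. A second held LB cells given amiodarone, a cationic amphiphilic drug against cardiac arrhythmia that is known for lung toxicity. The others held LB cells given the vehicle (LB DMSO) and A549 cells given the vehicle (A549 DMSO). A549 is a human lung adenocarcinoma line, and the labels give A549 cells as the source of the LB line as well without saying how LB cells were made. Amiodarone was used at 10 µM for 24 h, HPbCD at 10 mg/ml was present from the time of seeding, so that its addition preceded that of amiodarone by 24 h, and the vehicle was 0.1% DMSO. Amiodarone was not given to A549 cells in the libraries analysed, and no library held HPbCD without amiodarone, so an effect of HPbCD by itself cannot be told apart from one that needs the drug.

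Levels are in TPM, a share of the transcripts of a library that is scaled for transcript length, so levels of different genes can be set side by side. The TPM of a library summed to between 999449 and 999632, and a TPM table does not keep the sequencing depth, which is therefore unknown. Correlations of log2 values within a group averaged between 0.985 and 0.989. Of 8 epithelial markers, 8 had a mean of at least 1 TPM in each of the 4 groups. Their summed level ranged from 4401 to 4888 TPM with amiodarone plus HPbCD, 4622 to 5126 TPM with amiodarone, 4874 to 5422 TPM in LB DMSO cells and 9951 to 10560 TPM in A549 DMSO cells. Between the lines 0 of the 8 were called higher and 7 lower in LB DMSO cells, with a median log2 difference of -1.02. Of all genes, 14.2% were called higher there and 18.2% lower, with a median of -0.04. These markers thus also differed between the lines, and their part in the line differences described below was not tested. A549 DMSO replicate 2 held the highest AREG, EREG, MET, EGFR and AXL of the A549 libraries and is set apart below wherever it decides a value. Nothing in the labels says that the 3 libraries of a group came from separate cultures, so p-values measure the spread between these libraries, which may be technical. In bulk RNA, fewer cells with a transcript and less transcript per cell cannot be told apart.

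Receptor tyrosine kinases are membrane proteins that pair when a ligand binds them, phosphorylate each other and feed the RAS and ERK cascade and the PI3K pathway. HGF is the ligand of MET. In the lung it is known as a product of mesenchymal cells that acts on alveolar epithelium. AREG and EREG are made as membrane proteins, are cut free by metalloproteases and bind EGFR. ERBB2 has no known ligand and signals in pairs with the other ErbB receptors, and ERBB3 binds neuregulins but has a weak kinase of its own. NTRK3 is the receptor of neurotrophin-3, AXL that of GAS6, and FGFR1 one of the fibroblast growth factor receptors.

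Promoter sequences are shown for the 4 members on which the results turn, EREG and AREG as neighbours that were both higher in LB cells, and HGF and NTRK3 as the members with the widest gap between the lines. Each runs from 250 bases before to 50 bases after a transcription start, 5′ to 3′ on the strand of the gene, from RefSeq on GRCh38.p14. Capitals mark matches, on either strand, to a TATA box (TATAAA), a cyclic AMP response element (TGACGTCA), an AP-1 site (TGANTCA) or a GC box (GGGCGG).
EREG: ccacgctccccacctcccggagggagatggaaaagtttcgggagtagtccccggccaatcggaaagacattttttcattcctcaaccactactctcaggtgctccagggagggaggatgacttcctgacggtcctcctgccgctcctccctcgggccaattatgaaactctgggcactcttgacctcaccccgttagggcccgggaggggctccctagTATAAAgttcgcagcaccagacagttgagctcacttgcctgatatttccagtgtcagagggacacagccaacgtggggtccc
AREG: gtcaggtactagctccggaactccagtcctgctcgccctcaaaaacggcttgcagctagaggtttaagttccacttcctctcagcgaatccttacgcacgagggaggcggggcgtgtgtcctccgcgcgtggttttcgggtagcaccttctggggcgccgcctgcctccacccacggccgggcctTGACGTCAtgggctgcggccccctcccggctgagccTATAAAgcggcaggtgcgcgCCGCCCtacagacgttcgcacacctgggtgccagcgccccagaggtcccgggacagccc
HGF: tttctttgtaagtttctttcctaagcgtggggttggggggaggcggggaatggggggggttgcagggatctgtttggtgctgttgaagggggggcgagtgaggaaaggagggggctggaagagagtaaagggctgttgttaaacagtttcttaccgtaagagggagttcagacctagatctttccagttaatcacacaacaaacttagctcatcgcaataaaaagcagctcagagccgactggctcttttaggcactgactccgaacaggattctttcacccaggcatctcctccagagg
NTRK3: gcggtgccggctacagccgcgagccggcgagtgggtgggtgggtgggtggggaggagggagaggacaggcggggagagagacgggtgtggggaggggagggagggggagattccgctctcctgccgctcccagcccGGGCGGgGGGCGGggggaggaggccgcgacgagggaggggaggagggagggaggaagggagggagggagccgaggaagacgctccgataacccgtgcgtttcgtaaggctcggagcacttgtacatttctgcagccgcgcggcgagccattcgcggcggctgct
The EREG window, chr4:74364895-74365194 on the plus strand, held TATAAA with its first base at -32 from the start site. In the AREG window, chr4:74444886-74445185 on the plus strand, TATAAA lay at -29, TGACGTCA at -65 and a GC box, read on the other strand, at -9. The HGF window, chr7:81769998-81770297 on the minus strand, matched none of the 4 motifs, and the NTRK3 window, chr15:88256690-88256989 on the minus strand, matched the GC box at -114 and -107. No 2 matches overlapped. Of 35116 RefSeq promoter windows of that length, 11.5% held the TATA box, 1.85% the cyclic AMP response element, 7.71% the AP-1 site and 45% the GC box. A match is a string of letters, not a measured binding site. EREG and AREG lie 56382 bp apart on chromosome 4, with 0 protein-coding genes between them.

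In the GENCODE 29 annotation of GRCh38, HGF spans chromosome 7 from 81699008 to 81770438, MET the same chromosome from 116672390 to 116798386 and EGFR from 55019021 to 55211628. EREG spans chromosome 4 from 74365143 to 74388751 and AREG from 74445134 to 74455009. ERBB2 spans chromosome 17 from 39687914 to 39730426, ERBB3 chromosome 12 from 56076799 to 56103505, NTRK3 chromosome 15 from 87859751 to 88256768 and AXL chromosome 19 from 41219203 to 41261766, and FGFR1 is on chromosome 8. EGFR and NTRK3 overlap the antisense genes EGFR-AS1 and NTRK3-AS1, ERBB2 overlaps PGAP3 and MIEN1, AXL overlaps AC011510.1 and FGFR1 overlaps LETM2, all on the opposite strand. On their own strands, ERBB3 overlaps AC034102.2, ERBB2 overlaps MIR4728, NTRK3 overlaps MED28P6, and FGFR1 overlaps AC087623.3 and RPS20P22. The libraries were stranded, but the sources used here do not say whether the quantification used the strand, so reads in those overlaps may be divided with less certainty.

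More of the 10 members differed between the lines than between treatments. In LB DMSO against A549 DMSO, 9 of 10 members passed the test (limma, Benjamini-Hochberg adjusted p under 0.05, log2(TPM + 1) scale), against 32.4% of all genes tested. HGF and NTRK3 were known as large line differences when the members were picked, and the other 8 members hold 7 of the calls. Of the 9, 3 were higher in LB DMSO cells, where 14.2% of all genes were called higher, and 6 were lower, where 18.2% of all genes were called lower. In 8 of 10 members the libraries of the lines did not overlap, against 43.7% of all genes. The median log2 difference of the members was -0.75, against -0.04 for all genes. HGF is among the 3 higher, NTRK3 among the 6 lower, and both are among the 8. These counts and this median therefore describe members partly picked with the line difference known.

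Amiodarone left the 10 members with 0 calls against LB DMSO, where 8.62% of all genes passed (4.90% higher and 3.72% lower), and 0 of 10 had an unadjusted limma p under 0.05, against 23.1% of all genes. The groups did not overlap for 4 members, AREG, EREG, ERBB2 and AXL, against 30.0% of all genes. The number of members called was 1, AXL, when A549 DMSO replicate 2 was left out. The members' median log2 difference was -0.02.

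With amiodarone plus HPbCD, EREG and MET were higher than with amiodarone by the same test, 2 of 10 members against 4.07% of all genes (2.71% higher and 1.36% lower). The groups did not overlap for 7 members, against 25.1% of all genes, and the median log2 difference was 0.13. The number of members called was 1 without A549 DMSO replicate 1 or LB DMSO replicate 2 or 3. It lay between 0 and 1 when any amiodarone or amiodarone plus HPbCD library was left out, and was 4 without A549 DMSO replicate 2. Against LB DMSO, the amiodarone plus HPbCD cells had 4 of 10 members called, against 17.9% of all genes. EREG, EGFR and MET were higher, where 10.1% of all genes were called higher, and ERBB2 was lower, where 7.81% were called lower. The groups did not overlap for 6 members, against 39.1% of all genes, and the median log2 difference was 0.08. The number of members called was 2 without amiodarone plus HPbCD replicate 2. The treatment comparisons share libraries in pairs, so their values are given side by side and not related to each other.

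**Figure D1:**
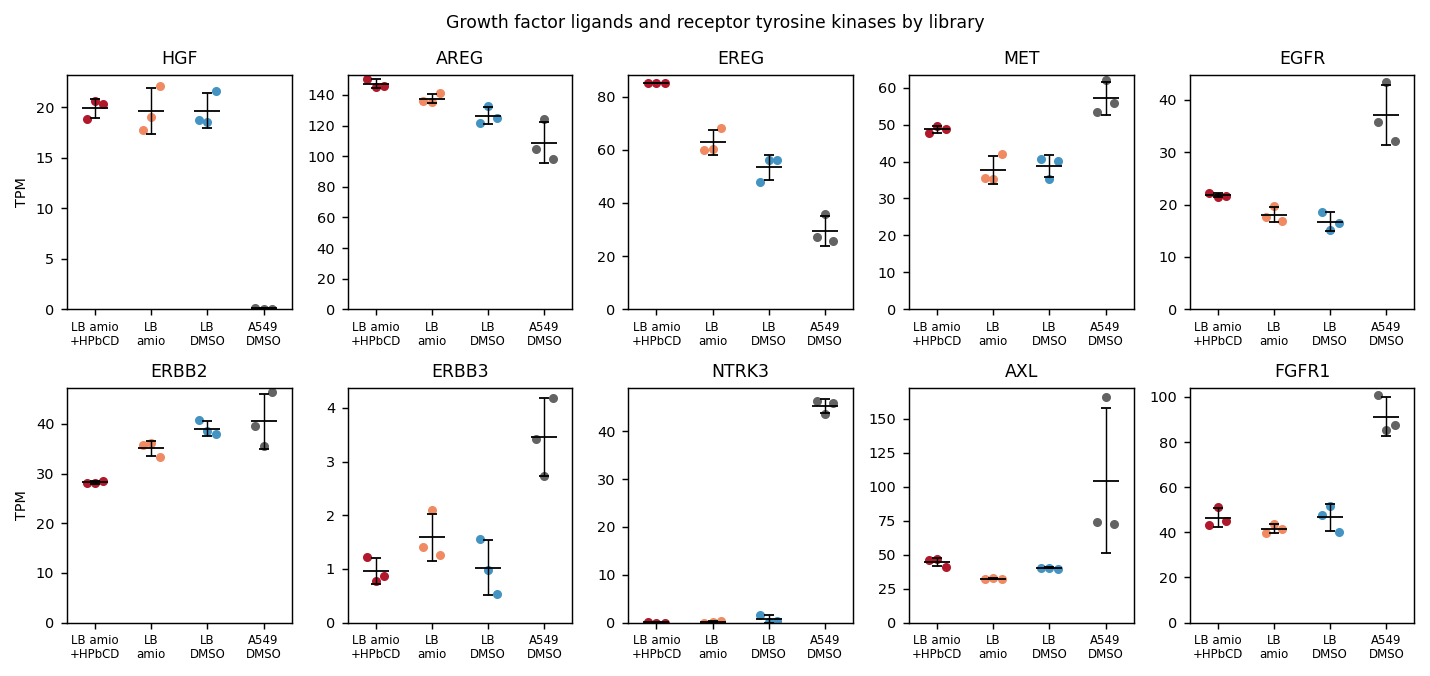
TPM of the 10 members (vertical axis, starting at 0) in each library, with LB amiodarone plus HPbCD, LB amiodarone, LB DMSO and A549 DMSO from left to right. Points are libraries, the long bar is the mean and the whiskers are 1 SD (n = 3). HGF lies near 0 in A549 cells and NTRK3 near 0 in the 3 LB groups, EREG steps up from right to left, and 1 A549 library stands at 166 TPM for AXL.

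HGF, the ligand of MET, was present in LB cells under every treatment and nearly absent from A549 cells. Its level was 18.85, 20.59 and 20.35 TPM with amiodarone plus HPbCD, 17.78, 19.00 and 22.14 TPM with amiodarone, 18.75, 18.57 and 21.65 TPM in LB DMSO cells, and 0.17, 0.03 and 0.04 TPM in A549 DMSO cells. The 9 LB libraries therefore lay within 17.78 and 22.14 TPM, and no A549 library came near them. The log2 difference of LB DMSO from A549 DMSO was 4.26 on the log2(TPM + 1) scale, which understates the change of a gene close to 0. No comparison between treatments passed the test for HGF. The log2 difference was -0.0035 for amiodarone against LB DMSO (95% interval -0.22 to 0.22) and 0.02 for amiodarone plus HPbCD against amiodarone (95% interval -0.20 to 0.24). Since HGF is known as a fibroblast product, 10 fibroblast markers were read beside it. Of these, 3 had a mean of at least 1 TPM with amiodarone plus HPbCD, 3 with amiodarone, 3 in LB DMSO cells and 2 in A549 DMSO cells. Their summed level ranged from 9.40 to 10.23 TPM with amiodarone plus HPbCD, 15.50 to 20.77 TPM with amiodarone, 15.18 to 18.23 TPM in LB DMSO cells and 11.91 to 16.68 TPM in A549 DMSO cells, so the ranges of the lines under vehicle overlapped. The 3 markers tested moved in opposite directions between the lines. COL1A1 averaged 8.38 TPM in LB DMSO cells and 4.13 TPM in A549 DMSO cells (limma adjusted p 0.00159), and LUM averaged 2.44 TPM in LB DMSO cells and 0.27 TPM in A549 DMSO cells (limma adjusted p 0.000101). THY1 averaged 5.26 TPM in LB DMSO cells and 9.19 TPM in A549 DMSO cells (limma adjusted p 0.0132, lost without LB DMSO replicate 3). The part of such cells in the HGF difference was not tested. DCN and FAP were listed at 0 in every amiodarone, LB DMSO and A549 DMSO library.

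MET, the receptor of HGF, was lower in LB DMSO than in A549 DMSO cells and higher with amiodarone plus HPbCD than with amiodarone. It had 47.82, 49.74 and 48.72 TPM with amiodarone plus HPbCD, 35.67, 35.21 and 41.95 TPM with amiodarone, 40.65, 35.33 and 40.26 TPM in LB DMSO cells, and 53.34, 62.14 and 55.79 TPM in A549 DMSO cells. Each amiodarone plus HPbCD library was above each library of the other LB groups and below each A549 library, while the amiodarone and LB DMSO libraries were mixed. The log2 difference of LB DMSO from A549 DMSO was -0.55 ± 0.081 (SE, limma adjusted p 0.000248). Against amiodarone, amiodarone plus HPbCD gave 0.37 ± 0.081 (SE, limma adjusted p 0.025). The call was lost with no filter, and when amiodarone replicate 1 or 2 or any amiodarone plus HPbCD library was left out. Against LB DMSO, amiodarone plus HPbCD gave 0.33 ± 0.081 (SE, limma adjusted p 0.0154). That difference missed the threshold without LB DMSO replicate 2 or amiodarone plus HPbCD replicate 2. Amiodarone and LB DMSO cells differed by -0.04 (95% interval -0.22 to 0.13).

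Pro-HGF has to be cut before it can activate MET, and 7 genes linked to that step were listed. The proteases HGFAC, ST14 (matriptase) and HPN (hepsin) stayed under 1 TPM in the 12 libraries, while PLAU, the protease urokinase, had between 46.40 and 116.03 TPM. Of the inhibitors, SPINT2 had between 607.53 and 781.01 TPM and SPINT1 between 0.71 and 1.28 TPM. PLAUR, the receptor of urokinase, was the called gene among the 3 that were tested. Its level was 79.39, 74.52 and 72.66 TPM with amiodarone plus HPbCD, 48.53, 49.30 and 48.75 TPM with amiodarone, 51.05, 57.11 and 49.64 TPM in LB DMSO cells, and 33.03, 34.73 and 35.14 TPM in A549 DMSO cells. PLAUR was thus highest in the amiodarone plus HPbCD libraries, with a log2 difference of 0.62 ± 0.060 from amiodarone (SE, limma adjusted p 0.000102) and 0.52 ± 0.060 from LB DMSO (SE, limma adjusted p 9.89e-05). In LB DMSO against A549 DMSO it was higher by 0.60 ± 0.060 (SE, limma adjusted p 9.75e-06). Of all genes, 32.4% were called between the lines. For amiodarone plus HPbCD, 4.07% were called against amiodarone and 17.9% against LB DMSO.

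AREG and EREG, the EGFR ligands of the list, were both higher in LB DMSO than in A549 DMSO cells, and EREG was higher again with amiodarone plus HPbCD. EREG had 85.27, 85.21 and 85.14 TPM with amiodarone plus HPbCD, 59.82, 60.49 and 68.33 TPM with amiodarone, 47.94, 56.25 and 56.08 TPM in LB DMSO cells, and 27.06, 35.96 and 25.59 TPM in A549 DMSO cells. The 4 groups did not overlap and stood in that order. The log2 difference of LB DMSO from A549 DMSO was 0.85 ± 0.11 (SE, limma adjusted p 8.28e-05). Amiodarone plus HPbCD differed from LB DMSO by 0.67 ± 0.11 (SE, limma adjusted p 0.00122), a call that held whichever library was left out. Amiodarone against LB DMSO did not pass, at 0.23 (95% interval -0.0049 to 0.47, limma adjusted p 0.227). Amiodarone plus HPbCD against amiodarone passed narrowly, at 0.44 ± 0.11 (SE, limma adjusted p 0.0459). It was lost when any amiodarone or amiodarone plus HPbCD library, A549 DMSO replicate 1, or LB DMSO replicate 2 or 3 was left out, and also with a pseudocount of 0.1, quantile normalization or no filter.

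AREG, the most abundant of the 10 genes, showed the same order of means with smaller steps. It had 150.58, 145.46 and 146.14 TPM with amiodarone plus HPbCD, 135.95, 135.72 and 141.08 TPM with amiodarone, 121.94, 132.87 and 124.84 TPM in LB DMSO cells, and 104.45, 124.07 and 98.03 TPM in A549 DMSO cells. The LB groups did not overlap, and 1 A549 library lay within the LB DMSO range. The log2 difference of LB DMSO from A549 DMSO was 0.22 ± 0.072 (SE, limma adjusted p 0.0326). Leaving out A549 DMSO replicate 1 or 3, or LB DMSO replicate 2 or 3, ended the call, as did a run with no filter and a fit of the 2 groups alone. Without A549 DMSO replicate 2 it was 0.32 (limma adjusted p 0.000626). In LB cells, amiodarone plus HPbCD gave 0.22 against LB DMSO (95% interval 0.063 to 0.38, limma adjusted p 0.0542) and 0.10 against amiodarone (95% interval -0.058 to 0.26), and amiodarone gave 0.12 against LB DMSO (95% interval -0.036 to 0.28), none of them past the test.

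Summed over 7 EGFR-binding ligands, the level was 242.2 ± 3.4 TPM with amiodarone plus HPbCD, 207.3 ± 7.3 TPM with amiodarone, 188.3 ± 10.4 TPM in LB DMSO cells and 151.8 ± 22.2 TPM in A549 DMSO cells (SD, n = 3 each). The ranges of the 4 groups did not overlap. The lines nearly met, with 177.9 to 198.7 TPM in LB DMSO cells and 135.4 to 177 TPM in A549 DMSO cells. A549 DMSO replicate 2 held the highest AREG and EREG of the A549 libraries. These sums were not tested, and an exact permutation test of 3 against 3 libraries cannot give a p below 0.1. AREG made up 60.9% of the sum with amiodarone plus HPbCD, 66.4% with amiodarone, 67.2% in LB DMSO cells and 71.9% in A549 DMSO cells. The share of EREG was 35.2% with amiodarone plus HPbCD, 30.3% with amiodarone, 28.4% in LB DMSO cells and 19.4% in A549 DMSO cells, so the mixture held more EREG in the LB groups.

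**Figure D2:**
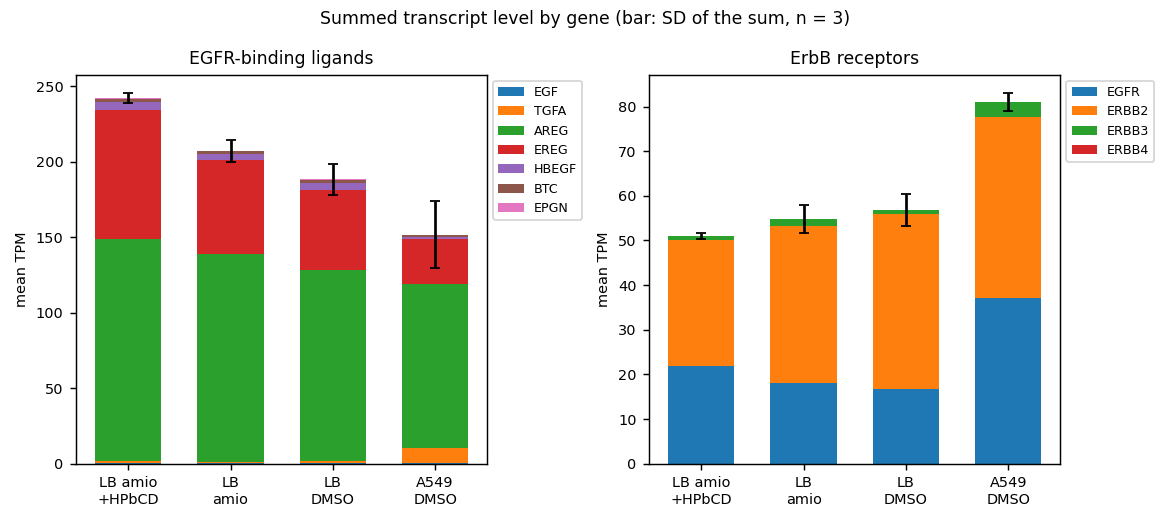
Mean TPM by gene, stacked, for the 7 EGFR-binding ligands (left) and the 4 ErbB receptors (right) in the 4 groups, with 1 SD of the sum as whiskers (n = 3). AREG and EREG fill nearly the whole ligand bars, which are highest at 242.2 TPM with amiodarone plus HPbCD, whereas the receptor bars are highest at 81.1 TPM in A549 DMSO cells.

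Of the 9 other ErbB ligands listed, 6 were tested in the line comparison. In LB DMSO cells 2 were higher and 2 lower, against 14.2% and 18.2% of all genes. NRG4, a ligand of ERBB4, averaged 15.89 TPM in LB DMSO cells and 1.61 TPM in A549 DMSO cells, a log2 difference of 2.71 ± 0.19 (SE, limma adjusted p 5.17e-07). HBEGF averaged 4.52 TPM in LB DMSO cells and 1.69 TPM in A549 DMSO cells, higher by 1.07 ± 0.16 (SE, limma adjusted p 0.000231). TGFA, another EGFR ligand, averaged 0.993 TPM in LB DMSO cells and 9.98 TPM in A549 DMSO cells, a difference of -2.46 ± 0.19 (SE, limma adjusted p 8.91e-07). NRG1, a ligand of ERBB3, averaged 27.4 TPM in LB DMSO cells and 80.3 TPM in A549 DMSO cells, a difference of -1.51 ± 0.072 (SE, limma adjusted p 1.44e-08). EGFR ligands thus changed in both directions between the lines. In each of the 3 treatment comparisons, 0 of these 6 ligands passed the test. Of all genes, 8.62% passed for amiodarone against LB DMSO. For amiodarone plus HPbCD, 4.07% passed against amiodarone and 17.9% against LB DMSO. With 6 genes, 0 calls can lie near such shares.

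EGFR, the receptor of AREG and EREG, was lower in LB DMSO than in A549 DMSO cells. Its level was 22.27, 21.49 and 21.68 TPM with amiodarone plus HPbCD, 17.60, 19.67 and 16.91 TPM with amiodarone, 18.65, 15.22 and 16.39 TPM in LB DMSO cells, and 35.81, 43.41 and 32.09 TPM in A549 DMSO cells. The A549 libraries were all above the LB libraries, and the amiodarone plus HPbCD libraries were all above the other LB libraries. The log2 difference of LB DMSO from A549 DMSO was -1.10 ± 0.11 (SE, limma adjusted p 7.33e-06). Amiodarone plus HPbCD was higher than LB DMSO by 0.37 ± 0.11 (SE, limma adjusted p 0.0312), a call lost with no filter and without LB DMSO replicate 2 or 3 or any amiodarone plus HPbCD library. Against amiodarone the difference was 0.26 (95% interval 0.032 to 0.49, limma adjusted p 0.212), and amiodarone against LB DMSO gave 0.10 (95% interval -0.13 to 0.33).

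ERBB2, the partner receptor without a known ligand, was lower with amiodarone plus HPbCD than in LB DMSO cells. It had 28.10, 28.03 and 28.52 TPM with amiodarone plus HPbCD, 35.74, 36.20 and 33.42 TPM with amiodarone, 40.72, 38.60 and 37.91 TPM in LB DMSO cells, and 39.62, 35.50 and 46.35 TPM in A549 DMSO cells. The LB groups did not overlap, and the LB DMSO libraries lay inside the A549 range. Amiodarone plus HPbCD differed from LB DMSO by -0.46 ± 0.081 (SE, limma adjusted p 0.00219), a call that held whichever library was left out. Against amiodarone the difference of -0.31 ± 0.081 did not pass (SE, limma adjusted p 0.0587), but it passed with a filter at 5 TPM, in a fit of these groups alone or of the 9 LB libraries, and without A549 DMSO replicate 2 or 3. ERBB2 was the single member not called between the lines, at -0.04 (95% interval -0.22 to 0.13, limma adjusted p 0.73).

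ERBB3, a neuregulin receptor, was low in every library. It had 1.23, 0.77 and 0.86 TPM with amiodarone plus HPbCD, 1.41, 2.09 and 1.26 TPM with amiodarone, 1.56, 0.98 and 0.53 TPM in LB DMSO cells, and 3.42, 2.74 and 4.19 TPM in A549 DMSO cells. The A549 libraries were the 3 highest, and the LB DMSO difference was -1.16 ± 0.21 on the log2(TPM + 1) scale (SE, limma adjusted p 0.00105). Its treatment differences had 95% intervals that held 0, for example -0.082 to 0.83 for amiodarone against LB DMSO. The 4 ErbB receptors summed to 51.0 TPM with amiodarone plus HPbCD, 54.8 TPM with amiodarone, 56.9 TPM in LB DMSO cells and 81.1 TPM in A549 DMSO cells. EGFR held 42.8% of that sum with amiodarone plus HPbCD, 32.9% with amiodarone, 29.4% in LB DMSO cells and 45.8% in A549 DMSO cells. Among the LB groups the EGFR share was highest with amiodarone plus HPbCD. These shares were not tested.

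**Figure D3:**
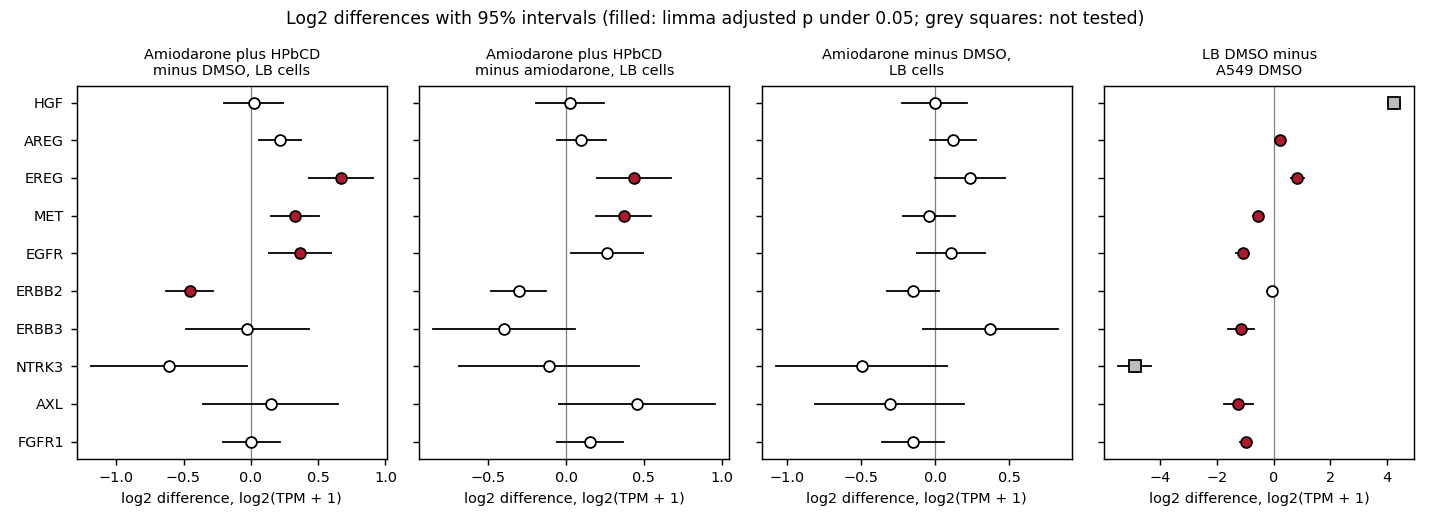
Log2 differences on the log2(TPM + 1) scale (horizontal axis, first group minus second) for the 10 members, with 95% limma intervals, in 4 comparisons that each have a scale of their own. Filled circles passed the limma test at an adjusted p of 0.05. Grey squares mark HGF and NTRK3 between the lines, which the figure heading labels as not tested. Both were in the fit and are counted among the calls in the text. They are set apart because they were known as large line differences when the members were picked. EREG, MET and EGFR lie right of 0 and ERBB2 left of 0 for amiodarone plus HPbCD against LB DMSO, and no member is filled for amiodarone against LB DMSO.

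NTRK3, the neurotrophin-3 receptor, was the mirror image of HGF, with high levels in A549 cells and almost none in LB cells. It had 0.05, 0 and 0 TPM with amiodarone plus HPbCD, 0, 0.05 and 0.26 TPM with amiodarone, 1.68, 0.03 and 0.35 TPM in LB DMSO cells, and 46.37, 43.70 and 45.89 TPM in A549 DMSO cells. One LB DMSO library stood above the other LB libraries at 1.68 TPM, and the A549 libraries were all above 43 TPM. The log2 difference of LB DMSO from A549 DMSO was -4.90 on the log2(TPM + 1) scale. The ligand of NTRK3, NTF3, was listed at 0 in the 12 libraries. No NTRK3 difference between treatments passed the test, and amiodarone plus HPbCD against LB DMSO gave -0.61 (95% interval -1.19 to -0.029, limma adjusted p 0.137). Without LB DMSO replicate 2 that difference was -0.90 and passed (limma adjusted p 0.0293), at levels under 2 TPM throughout.

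AXL, the GAS6 receptor, was lower in LB DMSO than in A549 DMSO cells, and its A549 level differed widely between libraries. It had 46.31, 46.62 and 41.15 TPM with amiodarone plus HPbCD, 32.16, 32.45 and 32.07 TPM with amiodarone, 40.35, 40.46 and 39.73 TPM in LB DMSO cells, and 74.30, 166.09 and 72.69 TPM in A549 DMSO cells. The 4 groups did not overlap, and amiodarone was the lowest of them. LB DMSO differed from A549 DMSO by -1.24 ± 0.23 (SE, limma adjusted p 0.00125), and by -0.86 without A549 DMSO replicate 2 (limma adjusted p 1.42e-06). The fit over the 4 groups uses one spread per gene, so the A549 libraries also set the error of the AXL differences among LB cells. There amiodarone against LB DMSO gave -0.31 ± 0.23 (SE, limma adjusted p 0.473) and amiodarone plus HPbCD against amiodarone gave 0.46 ± 0.23 (SE, limma adjusted p 0.328). With the 9 LB libraries alone, a fit chosen after seeing the data, the same differences had limma adjusted p of 0.0076 and 0.00145, and without A549 DMSO replicate 2 they had 0.00448 and 0.000608. The planned fit of the 2 groups alone gave limma adjusted p of 0.0103 and 0.011. Of 21 alternatives for each difference, these 3 passed and 18 did not. Amiodarone plus HPbCD against LB DMSO gave 0.15 (95% interval -0.35 to 0.65).

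FGFR1, a receptor of fibroblast growth factors, was lower in LB DMSO than in A549 DMSO cells and had no call between treatments. It had 43.24, 51.27 and 45.16 TPM with amiodarone plus HPbCD, 39.76, 43.71 and 41.57 TPM with amiodarone, 47.71, 51.74 and 40.29 TPM in LB DMSO cells, and 100.99, 85.17 and 87.77 TPM in A549 DMSO cells. The LB groups overlapped and the A549 libraries stood above all of them, with a log2 difference of -0.96 ± 0.096 for LB DMSO (SE, limma adjusted p 1.04e-05). Amiodarone plus HPbCD against LB DMSO gave 0.0030 (95% interval -0.21 to 0.21). Among ligands of AXL, NTRK3 and FGFR1, 10 were listed and 3 tested. FGF2 was called in each comparison with HPbCD, averaging 24.5 TPM with amiodarone plus HPbCD, 18.2 TPM with amiodarone, 17.4 TPM in LB DMSO cells and 25.5 TPM in A549 DMSO cells. It was higher with amiodarone plus HPbCD than with amiodarone by 0.41 ± 0.074 (SE, limma adjusted p 0.00914) and than in LB DMSO by 0.47 ± 0.074 (SE, limma adjusted p 0.001). In LB DMSO against A549 DMSO it differed by -0.53 ± 0.074 (SE, limma adjusted p 0.000165). PROS1, a further ligand of AXL's family, was the other call of that list between the lines (0.37 ± 0.13, SE, limma adjusted p 0.0441), and it was lost on leaving out any library except A549 DMSO replicate 3. GAS6 lay between 5.34 and 9.29 TPM in the 12 libraries. Of all genes, 32.4% were called between the lines. For amiodarone plus HPbCD, 4.07% were called against amiodarone and 17.9% against LB DMSO.

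By mean TPM the members' order among 58 receptor tyrosine kinases differed between the lines. With amiodarone plus HPbCD the highest was EPHA2, an ephrin receptor, followed by MET in place 2, FGFR1 in place 3 and AXL in place 4, with ERBB2 in place 7 and EGFR in place 10. In LB DMSO cells EPHA2 was also first, FGFR1 was in place 2, AXL in place 4, ERBB2 in place 5, MET in place 6, EGFR in place 11, ERBB3 in place 26 and NTRK3 in place 28. In A549 DMSO cells AXL came first, FGFR1 in place 2, EPHA2 in place 3, MET in place 4, NTRK3 in place 5, ERBB2 in place 7, EGFR in place 9 and ERBB3 in place 22. The first place of AXL rested on A549 DMSO replicate 2, at 166.09 TPM. In A549 DMSO replicates 1 and 3 AXL had 74.30 and 72.69 TPM. FGFR1, at 100.99 and 87.77 TPM, and EPHA2, at 77.54 and 72.87 TPM, were above it there. Some neighbours in these orders overlapped. In LB DMSO cells, for instance, AXL, ERBB2 and MET all lay between 35 and 41 TPM.

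Among the 51 other receptor tyrosine kinases 20 were tested. Between the lines 4 were higher and 6 lower in LB DMSO cells, against 14.2% and 18.2% of all genes. Their median log2 difference was -0.04. EPHA6 and EPHA5, ephrin receptors at low levels, were higher by 1.65 ± 0.15 and 1.45 ± 0.14 (SE, limma adjusted p 5.49e-06 and 5.53e-06). EPHB2 and FGFR4 were lower, with differences of -1.29 ± 0.15 and -1.26 ± 0.10 (SE, limma adjusted p 2.97e-05 and 1.45e-06). These kinases thus changed in both directions. FGFR4 was the kinase called with amiodarone against LB DMSO, averaging 24.5 TPM with amiodarone and 16.9 TPM in LB DMSO cells (0.51 ± 0.10, SE, limma adjusted p 0.00877). With amiodarone plus HPbCD against LB DMSO, 2 were higher and 5 lower, against 10.1% and 7.81% of all genes. Their total lay between 1 and 3 when any library of these groups was left out. LMTK3, which averaged 3.97 TPM with amiodarone plus HPbCD and 8.17 TPM in LB DMSO cells, held its call throughout those fits (-0.89 ± 0.14, SE, limma adjusted p 0.0011). It was also the call against amiodarone (-0.70 ± 0.14, SE, limma adjusted p 0.0175), which was lost without amiodarone replicate 1 or 2 or amiodarone plus HPbCD replicate 1 or 3. Of all genes, 4.07% were called in that comparison and 8.62% for amiodarone against LB DMSO.

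Of 17 ERK-induced genes and feedback inhibitors, all tested, 10 were higher and 0 lower with amiodarone plus HPbCD than in LB DMSO. Of all genes, 10.1% were called higher there and 7.81% lower. The median log2 difference of the list was 0.49, against -0.02 for all genes. The members of this list were drawn up with earlier results of these data known. DUSP5, a nuclear phosphatase that acts on ERK, had 69.70, 66.60 and 57.03 TPM with amiodarone plus HPbCD, 26.47, 29.34 and 25.35 TPM with amiodarone, 21.55, 24.74 and 21.46 TPM in LB DMSO cells, and 17.40, 21.42 and 17.67 TPM in A549 DMSO cells. Its amiodarone plus HPbCD libraries were far above the 9 others, by 1.47 ± 0.10 from LB DMSO (SE, limma adjusted p 9.31e-07). FOS averaged 8.04 TPM with amiodarone plus HPbCD and 4.38 TPM in LB DMSO cells (0.73 ± 0.17, SE, limma adjusted p 0.00908), and EGR1 averaged 4.03 TPM with amiodarone plus HPbCD and 2.04 TPM in LB DMSO cells (0.72 ± 0.15, SE, limma adjusted p 0.00616). Both are early transcription factors. FOSL1, a FOS relative, had 55.58, 52.37 and 52.39 TPM with amiodarone plus HPbCD against 20.62, 28.22 and 24.63 TPM in LB DMSO cells (1.11 ± 0.35, SE, limma adjusted p 0.0447). Its A549 libraries held 20.80, 70.70 and 20.43 TPM, replicate 2 again being the highest, and the call was lost when any LB library was left out.

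For amiodarone plus HPbCD against amiodarone, 2.71% of all genes were called higher and 1.36% lower. Of the 17, 6 were higher and 0 lower, with a median of 0.29 against -0.0081 for all genes. They were DUSP5 (1.22 ± 0.10, SE, limma adjusted p 3.05e-05), FOS, EGR1, PHLDA1, DUSP4 and IER3. The count was 3 without amiodarone plus HPbCD replicate 1. The calls of DUSP5, PHLDA1 and DUSP4 held whichever library was left out. That of EGR1 (limma adjusted p 0.0386) was lost without LB DMSO replicate 1 or 2, amiodarone replicate 1 or 3 or any amiodarone plus HPbCD library, and also with the replicate number as a block, a pseudocount of 0.1, no filter or the 2 groups alone. That of FOS (limma adjusted p 0.0199) was lost without replicate 1 or 2 of either group, with no filter or with the 2 groups alone, and that of IER3 (limma adjusted p 0.0163) without amiodarone replicate 2 or 3 or amiodarone plus HPbCD replicate 1 or 3. For amiodarone against LB DMSO, 4.90% of all genes were called higher and 3.72% lower. Of the 17, 2 were higher and 0 lower, with a median of 0.17. These were DUSP4, which averaged 134.9 TPM with amiodarone and 105.4 TPM in LB DMSO cells (0.35 ± 0.039, SE, limma adjusted p 0.000127), and IER3, which averaged 223.9 TPM with amiodarone and 166.6 TPM in LB DMSO cells (0.42 ± 0.058, SE, limma adjusted p 0.000726). Between the lines, 9 were higher and 1 lower in LB DMSO cells, against 14.2% and 18.2% of all genes. The median was 0.37. SPRY4, a feedback inhibitor of receptor signalling, averaged 13.2 TPM in LB DMSO cells and 4.40 TPM in A549 DMSO cells (1.40 ± 0.097, SE, limma adjusted p 4.28e-07). SPRY2, a relative of SPRY4, was the lower one. Phosphorylated ERK was not measured, and these are transcript levels.

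**Figure D4:**
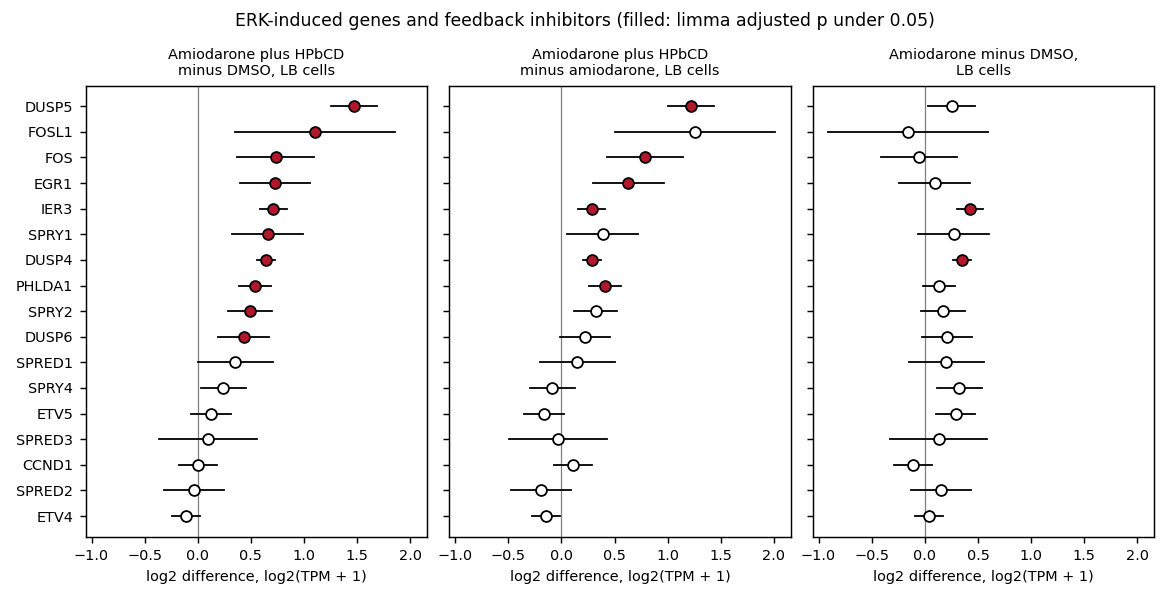
Log2 differences on the log2(TPM + 1) scale (horizontal axis, first group minus second) of 17 ERK-induced genes and feedback inhibitors in LB cells, with 95% limma intervals. Filled circles passed the limma test at an adjusted p of 0.05. There are 10 filled circles for amiodarone plus HPbCD against LB DMSO, 6 against amiodarone and 2 for amiodarone against LB DMSO, all right of 0.

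Of 17 adaptor, RAS and ERK cascade genes, 1 was higher and 2 were lower in LB DMSO than in A549 DMSO cells. Of all genes, 14.2% were called higher there and 18.2% lower. The share of all genes called was 17.9% for amiodarone plus HPbCD against LB DMSO. It was 4.07% for amiodarone plus HPbCD against amiodarone and 8.62% for amiodarone against LB DMSO. The adaptor SHC1 averaged 358.1 TPM in LB DMSO cells and 169.8 TPM in A549 DMSO cells (1.07 ± 0.054, SE, limma adjusted p 2.5e-08). MAP2K1, the kinase that activates ERK, averaged 93.7 TPM with amiodarone plus HPbCD and 72.4 TPM in LB DMSO cells (0.37 ± 0.051, SE, limma adjusted p 0.000383), 1 of 2 called there. MAP2K1 was also the 1 call against amiodarone (0.28 ± 0.051, SE, limma adjusted p 0.00918), lost without amiodarone plus HPbCD replicate 1. With amiodarone against LB DMSO, MAP2K2, the relative of MAP2K1, was the 1 call (0.20 ± 0.047, SE, limma adjusted p 0.0215), lost without LB DMSO replicate 1 or 3 or amiodarone replicate 1 or 2.

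Among 6 genes of ligand shedding, ADAM17, the main protease for AREG, averaged 18.9 TPM in LB DMSO cells and 24.0 TPM in A549 DMSO cells (-0.33 ± 0.099, SE, limma adjusted p 0.0222, lost without A549 DMSO replicate 1 or 3 or LB DMSO replicate 2). ADAM12 was the 1 higher gene of the list in LB DMSO cells (1.46 ± 0.16, SE, limma adjusted p 2.7e-05), and 3 were lower. Of all genes, 14.2% were called higher there and 18.2% lower. With amiodarone plus HPbCD against LB DMSO, ADAM10 and ADAM17 were called higher (0.18 ± 0.040 and 0.32 ± 0.099, SE, limma adjusted p 0.00825 and 0.0424). In that comparison 10.1% of all genes were called higher. The ADAM17 call was lost in 9 of 12 fits without 1 library, leaving 1 call, the exceptions being A549 DMSO replicate 2, amiodarone replicate 2 and amiodarone plus HPbCD replicate 2. The list had 0 calls for amiodarone against LB DMSO and 0 for amiodarone plus HPbCD against amiodarone. All genes had 8.62% and 4.07% called there.

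Of 9 genes of receptor turnover and negative regulation, 8 were tested, and 4 were higher and 1 lower in LB DMSO than in A549 DMSO cells, or 3 in all without A549 DMSO replicate 1 or LB DMSO replicate 2 or 3. Of all genes, 14.2% were called higher between the lines and 18.2% lower. ERRFI1, an inhibitor of EGFR and ERBB2 induced by their signalling, had 108.22, 107.11 and 108.92 TPM with amiodarone plus HPbCD, 81.76, 83.07 and 86.77 TPM with amiodarone, 75.45, 81.85 and 78.76 TPM in LB DMSO cells, and 52.21, 42.29 and 49.10 TPM in A549 DMSO cells. It was highest with amiodarone plus HPbCD and lowest in A549 cells, as EREG was. The log2 difference was 0.36 ± 0.068 from amiodarone (SE, limma adjusted p 0.0107), 0.45 ± 0.068 from LB DMSO (SE, limma adjusted p 0.000643), and 0.71 ± 0.068 for LB DMSO from A549 DMSO (SE, limma adjusted p 6.77e-06). CBLB, a ubiquitin ligase for receptors, was higher in LB DMSO by 0.81 ± 0.095 (SE, limma adjusted p 4.01e-05), and so was the phosphatase PTPRJ, by 0.69 ± 0.063 (SE, limma adjusted p 4.47e-06). Amiodarone against LB DMSO had 0 calls in this list, against 8.62% of all genes.

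For each member the genes with the most similar pattern were sought among 9796 genes by Pearson correlation of log2(TPM + 1) over the 12 libraries. The libraries share line and treatment, so r is a description. For members that differed between the lines it is set largely by that gap, which ERBB2 did not have. Over the 9 LB libraries alone the 3 most similar genes were others for each member, except that IL11 stayed first for MET. The genes named below are those over the 12 libraries. DNER (r = 0.998), SFTPB, a surfactant protein gene, and SIPA1L2 were most like HGF. SFTPB was listed at 0 in the 3 A549 DMSO libraries and had between 192.97 and 276.52 TPM in the 9 LB libraries. COL4A6 (r = 0.993), UPK1B and CDH2, the gene of N-cadherin, were most like NTRK3. UPP1 (r = 0.994), uridine phosphorylase, was most like EREG, followed by CDCP1 and LONRF3. UPP1 had 108.12, 113.06 and 111.60 TPM with amiodarone plus HPbCD, 87.47, 90.02 and 91.07 TPM with amiodarone, 75.01, 80.98 and 77.71 TPM in LB DMSO cells, and 47.11, 54.21 and 46.25 TPM in A549 DMSO cells. Like EREG, it had 4 groups that did not overlap, in the same order.

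IL11 (r = 0.949), a cytokine gene, was most like MET. It had 12.87, 13.15 and 13.82 TPM with amiodarone plus HPbCD, 6.40, 5.77 and 7.67 TPM with amiodarone, 7.95, 6.70 and 7.73 TPM in LB DMSO cells, and 13.46, 19.28 and 11.54 TPM in A549 DMSO cells, so it shared the low pair of LB groups with MET. AXL was most like FLNA (r = 0.986), CSRP1 and EPHA2. All 3 were highest in the same A549 library as AXL. FLNA, filamin A, had 639.45 TPM there and 470.62 and 432.46 TPM in the other A549 libraries, and EPHA2 had 111.06 TPM there and 77.54 and 72.87 TPM in the others. C10orf88 (r = 0.98), TMEM158 and LOXL2 were most like AREG, OSBP2 (r = 0.979), MITF and EPHB2 most like EGFR, CEMIP2, SULT2B1 and MGAT5B most like ERBB2, CXXC5, EID1 and MIS12 most like ERBB3, and MYRF (r = 0.984), RAB15 and DNM1 most like FGFR1.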

How the data were processed

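RNA was sequenced as stranded mRNA libraries of 100-bp read pairs, per the labels' protocols. The authors deposited TPM per gene symbol and library, made with STAR 2.7.3a and RSEM 1.3.1 on GRCh38, per the submitters' processing notes. The sources used here do not give the annotation release. RSEM divides reads shared between genes by estimation. Of 57189 rows, 37 held no value. Values were transformed as log2(TPM + 1). Once genes averaging under 1 TPM were removed, 13968 were left. In R 4.3.3, limma 3.58.1 was run on them with 4 group means (8 residual degrees of freedom) and a mean-variance trend. Its p-values, two-sided, were Benjamini-Hochberg adjusted over these genes within each of 4 comparisons, at 0.05. The test was tried on simulated data. The members and lists were chosen with earlier results of these data known. The text names the 10 members, up to 4 genes per list and comparison with the largest change past the test, kinases among the 10 highest, and the 3 genes most like each member with a mean of at least 5 TPM; genes named besides these (HGFAC, ST14, HPN, PLAU, SPINT1, SPINT2, NTF3, GAS6, SPRY2 and the markers DCN and FAP) were chosen after their values were seen. 8 of 10 members matched a RefSeq promoter. The alternatives were other pseudocounts, filters, scalings and sample sets, the replicate number as a block, and each library left out.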

Additional observations from a re-analysis of the deposited data

How the results depend on the processing

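Of 826 recomputed member differences 776 kept their side of the threshold, 32 lost a call, 18 gained one and 0 changed the direction of a call, and 30 of 40 member results kept it throughout. Members called were 1 for amiodarone against LB DMSO with the 2 groups alone or the 9 LB libraries (a fit added after seeing the data), and 0 to 1 with a library left out. For amiodarone plus HPbCD against amiodarone they were 1 with a pseudocount of 0.1 or quantile normalization, 0 with no filter, 4 with the 2 groups or the 9 LB libraries, and 0 to 4 with a library left out. Against LB DMSO they were 2 to 5 with a library left out. Calls over all genes then lay between 630 and 1493 for amiodarone against LB DMSO, where 1204 were found, and between 282 and 827 for amiodarone plus HPbCD against amiodarone, where 568 were found. Of 664 recomputed list counts 600 stayed within 1.5 times. In LB DMSO against A549 DMSO the others were 6 for other kinases and 2 for other ErbB ligands with a filter at 5 TPM, 1 for ligands of AXL, NTRK3 and FGFR1 with no filter, the 2 groups or the replicate block (1 to 2 with a library left out), and 3 for negative regulators with the 2 groups (3 to 5). In amiodarone against LB DMSO they were 0 for the cascade with the 2 groups (0 to 1), 1 for negative regulators with a pseudocount of 5, a filter at 5 TPM, the replicate block or the 9 LB libraries (0 to 1), and for other kinases 1 to 2 with a library left out. In amiodarone plus HPbCD against amiodarone other kinases gave 2 with a pseudocount of 0.1, the 2 groups or the replicate block, 0 with no filter and 4 with the 9 LB libraries (0 to 5 with a library left out), other ErbB ligands gave 1 with the 9 LB libraries, and with a library left out ERK-induced genes gave 3 to 8 and the cascade 0 to 1. In amiodarone plus HPbCD against LB DMSO other kinases gave 2 with no filter (1 to 8 with a library left out), ligand shedding gave 1 with no filter, quantile normalization or the 9 LB libraries (1 to 2), and HGF activation gave 1 to 2 with a library left out. The cause of these changes was not tested. Fewer genes or libraries enter the fits with a filter at 5 TPM or a reduced sample set, and more genes enter the fit with no filter.

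Replicate numbers are shared across groups, but nothing in the labels says that they pair libraries. Deviations of same-numbered libraries from their group means correlated between -0.03 and 0.21, over 0.1 in 2 of 12 pairs, and in 7 of 12 pairs both libraries were closest to their own number. With the replicate number as a block, all genes called were 4581 for LB DMSO against A549 DMSO, 1198 for amiodarone against LB DMSO, and for amiodarone plus HPbCD 606 against amiodarone and 2558 against LB DMSO, and no member changed its side of the threshold. TPM gives no depth, so counting error could not be set beside low values such as those of NTRK3 in LB cells and HGF in A549 cells.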
